A study of Mus musculus with 2 samples.

Results

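The 6 genes Defa3, Defa17, Defa20, Defa21, Defa22 and Defa24 code for alpha-defensins, small antimicrobial peptides of the mouse intestine. They were taken by name from a single-cell table of 13373 genes, and all 6 were in it. The table holds 1241 cells of a DBZ library and 968 cells of a DMSO library, both made from intestinal organoids with mutant Apc. DBZ inhibits gamma-secretase, the protease whose last cut lets a Notch receptor signal, and the solvent DMSO served as control. Both groups were C57Bl, 3 to 4 months of age. The treatment text is the same for both and gives 300 nM 4-OH-tam and 10 uM DBZ, so the sample titles were followed for which library had the inhibitor. Organoids are cultures grown from intestinal epithelium, and the labels do not say how many animals or cultures stood behind a library. With a single library for each treatment (1 per group), the differences below have no replicate check and were not tested. Every interval covers counting error only.

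Alpha-defensins are made by Paneth cells, the granule-filled secretory cells at the base of small-intestinal crypts. In the mouse the inactive precursor is cut to the active peptide by the metalloproteinase matrilysin (Mmp7), and the peptides are released into the crypt lumen. Paneth, goblet and enteroendocrine cells come from shared secretory progenitors. Notch signalling holds this fate back, and Wnt signalling through beta-catenin and TCF factors drives Paneth cell genes. Apc normally restrains that Wnt signal.

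The genes lie in tandem on chromosome 8, all on the plus strand and all with 2 exons, within a stretch of 709.9 kb (GENCODE M21, GRCm38, the assembly that mm10 names). In order along the chromosome they are Defa21 (chr8:21025545-21026516), Defa22 (chr8:21162277-21163249), Defa3 (chr8:21287409-21288377), Defa20 (chr8:21509258-21510237), Defa17 (chr8:21655780-21656735) and Defa24 (chr8:21734494-21735471). Their coding sequences fall into 2 groups of 3. Defa20, Defa21 and Defa22 were 91.0 to 99.3% identical to each other, and Defa3, Defa17 and Defa24 were 95.7 to 100% identical. The 9 pairs across the groups were 78.5 to 85.3% identical. The groups do not form separate blocks along the chromosome, since Defa3 lies between Defa22 and Defa20.

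The end of the coding sequence, which encodes most of the mature peptide, shows the grouping best. The lines below give coding positions 187 to 276, counted from the start codon in the alignment of the 6 genes, from the GENCODE M21 transcripts. Capitals mark the 41 positions at which the 6 genes are not all alike.
Defa20: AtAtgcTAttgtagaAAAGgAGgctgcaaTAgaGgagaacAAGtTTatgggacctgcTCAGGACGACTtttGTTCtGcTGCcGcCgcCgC
Defa21: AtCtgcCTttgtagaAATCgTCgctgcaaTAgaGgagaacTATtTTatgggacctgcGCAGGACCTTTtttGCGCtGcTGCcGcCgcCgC
Defa22: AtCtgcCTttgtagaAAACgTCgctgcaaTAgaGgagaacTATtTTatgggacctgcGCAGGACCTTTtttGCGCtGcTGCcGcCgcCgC
Defa3: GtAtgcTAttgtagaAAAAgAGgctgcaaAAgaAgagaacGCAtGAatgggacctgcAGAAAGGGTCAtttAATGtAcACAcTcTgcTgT
Defa17: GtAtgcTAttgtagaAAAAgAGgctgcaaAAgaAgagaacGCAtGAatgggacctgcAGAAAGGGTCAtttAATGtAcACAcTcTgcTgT
Defa24: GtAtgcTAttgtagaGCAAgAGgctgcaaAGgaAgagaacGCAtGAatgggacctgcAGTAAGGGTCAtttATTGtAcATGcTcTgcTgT
Over these 90 bases Defa21 and Defa22 differed at 1 position and Defa3 and Defa17 at 0. Defa24 differed from Defa3 at 7, and Defa20 from Defa22 at 14. Across the groups the genes differed at 28 to 40 positions.

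Such likeness bears on how reads can be counted. Transcript reads were 91 bases long, and every 91-base window of each member's transcript was looked up in all other transcripts of GENCODE M21. Defa24 shared 0% of its windows with another gene. Defa21 and Defa22 shared 44.8% and 44.7%, in each case only with each other. Defa3 shared 87.2% and Defa17 90.9%, with each other and with Defa30. Defa20 shared 99.7% of its 335 windows with Defa2, Defa32 or Defa33, all outside the 6. No window was common to a gene of the Defa20 group and a gene of the Defa3 group. The sources used here do not give how reads that match several genes were assigned. For that reason the split between Defa3 and Defa17, between Defa21 and Defa22, and between Defa20 and its near copies is uncertain. The summed levels of the groups share no such window with each other. Both sums still share windows with genes outside the 6, through Defa20 and through Defa3 and Defa17. Defa20 gave 132912 of the 278221 UMIs of its group in the DBZ library.

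RefSeq promoter entries were found for Defa20, Defa21 and Defa22. Because these 3 genes move together below, the 250 bases before the start are shown for Defa21 (GRCm38.p6, chr8:21025295-21025544, plus strand), with capitals on matches to ATCAAAG, a sequence bound by TCF and LEF factors, and to the E-box CAGATG.
Defa21: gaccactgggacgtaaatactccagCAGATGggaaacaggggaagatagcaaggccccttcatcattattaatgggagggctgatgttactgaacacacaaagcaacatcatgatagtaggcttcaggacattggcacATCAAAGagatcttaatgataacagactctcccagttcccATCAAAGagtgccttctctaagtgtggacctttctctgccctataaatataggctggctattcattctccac
Defa22 was identical over these 250 bases and Defa20 differed at 5. Each of the 3 had 2 matches to ATCAAAG, at 112 and 72 bases before the start, 1 match to CAGATG, at 225 bases, and 0 to CAGCTG. Both strands were searched, and the matches do not overlap. Of 32851 RefSeq promoter entries, 3.21% held ATCAAAG, 14.4% CAGATG and 13.0% CAGCTG in their 250 bases before the start. A match is a run of letters, not a measured binding site.

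Levels are given as UMIs (molecules counted once) per 10000 UMIs of the cell. All 6 genes had a higher mean in the DBZ library than in the DMSO library. The change is log2 of the ratio of mean levels over cells, with 0.05 added to each mean. It lay between 2.29 and 2.53 for the 6 genes. Of 12921 genes seen in at least 1% of cells of either library, 1.89% were at least 2-fold higher with DBZ by the same measure, and the median change was 0.10. Among the 6, all were at least 2-fold higher.

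Defa20 had the highest mean of its group. Its level ran from 0 through a median of 4.03 to a highest cell of 2150 with DBZ, and from 0 through 0.573 to 2166 with DMSO. The means were 72.6 and 14.8, a change of 2.29 (2.12 from pooled UMIs, interval 2.11 to 2.14). The medians were apart while the highest cells of both libraries reached the same level.

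Defa21 ran from 0 through a median of 1.11 to 1454 with DBZ and from 0 through 0 to 1716 with DMSO. Its means were 38.3 and 6.77, a change of 2.49 (pooled 2.28, interval 2.25 to 2.31). Defa22, its closest relative, ran from 0 through 1.42 to 1974 and from 0 through 0 to 1086. Its means were 49.0 and 8.94, a change of 2.45 (pooled 2.36, interval 2.34 to 2.39). For both genes a typical DMSO cell held no UMI, and the ranges of the libraries overlapped throughout.

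Defa24 was the most widely seen of the 6. It ran from 0 through a median of 6.83 to 2716 with DBZ and from 0 through 0.742 to 2196 with DMSO. The means were 70.7 and 12.2, a change of 2.53 (pooled 2.46, interval 2.44 to 2.48). It was absent from a single DBZ cell, as 1240 of 1241 cells had at least 1 UMI.

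Defa17 ran from 0 through a median of 1.26 to 1066 with DBZ and from 0 through 0 to 548 with DMSO. Its means were 16.9 and 3.13, a change of 2.41 (pooled 2.26, interval 2.22 to 2.30). Defa3, with the same coding sequence, was the lowest member. It ran from 0 through 0 to 136 and from 0 through 0 to 38.6, with means of 1.04 and 0.149 and a change of 2.45 (pooled 2.85, interval 2.68 to 3.03). Defa3 rested on 2619 UMIs in 160 DBZ cells and 293 UMIs in 18 DMSO cells, so it was the least precisely measured.

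**Figure D1:**
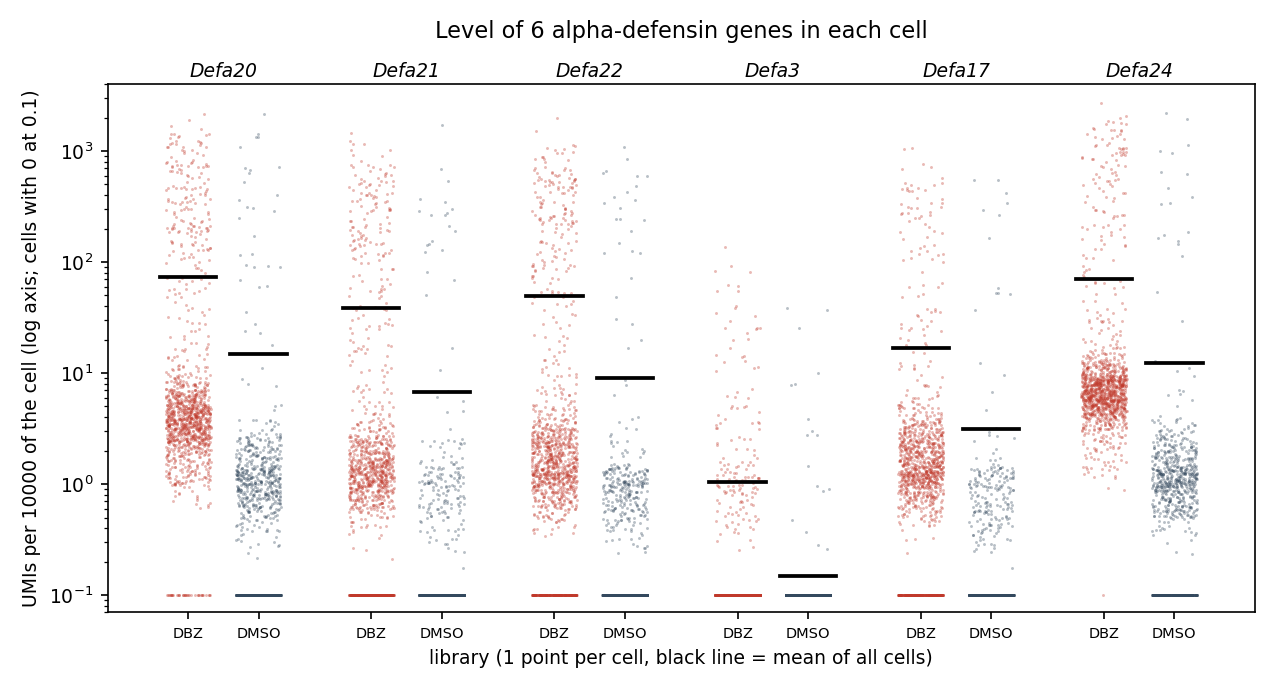
Level of each gene in each cell, as UMIs per 10000 on a log axis, with cells that have 0 UMIs drawn at 0.1. Each point is a cell, red for DBZ and dark for DMSO, and the black line is the mean over all cells of the library; most cells sit in a low band, which lies higher with DBZ, and the few cells above 100 carry the mean.

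Summed over the 6 genes, the mean was 248 with DBZ and 46.0 with DMSO, a change of 2.43 (pooled 2.30, interval 2.29 to 2.31). Few cells carried it. Leaving out the 5 highest cells of each library gave 3.07, since those cells held 39.98% of the DMSO mean and 6.58% of the DBZ mean. At least 100 UMIs per 10000 were found in 234 DBZ cells, or 18.9% (exact 95% interval 16.7 to 21.1%), and in 33 DMSO cells, or 3.41% (2.36 to 4.75%). These cells held 95.6% and 95.8% of all UMIs of the 6 genes. Within them the mean summed level was 1251 with DBZ and 1277 with DMSO, a log2 difference of -0.030. The libraries thus differed 5.53-fold in the share of such cells, with near-equal mean levels in those cells. The median summed levels in those cells were 905 with DBZ and 760 with DMSO, a ratio of 1.19. In the DMSO library such cells were deeper than the rest (median 16140 UMIs against 11083 in cells under 30), and in the DBZ library less so (11681 against 10715). The threshold of 100 fell in a sparse range, with 5 DBZ cells between 80 and 100 and 7 between 100 and 125.

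The low band also differed. Under 30 UMIs per 10000 were 963 DBZ cells (77.6%) and 928 DMSO cells (95.9%). The median summed level there was 13.3 with DBZ and 1.91 with DMSO, a 6.94-fold difference. No DBZ cell was under 3.59, whereas the DMSO band reached 0. Outside the secretory clusters described below, a UMI of Defa24 was still found in 99.9% of the DBZ library and 62.6% of the DMSO library, at median depths of 11421 and 11310 UMIs. For Defa20 these shares were 96.5% and 55.2%, and for Defa21 68.3% and 17.5%. A share over all cells near these is not read here as expression. Over all cells Defa24 was seen in 99.9% with DBZ and 62.8% with DMSO, Defa20 in 97.2% and 56.2%, Defa22 in 81.1% and 31.1%, Defa17 in 79.3% and 21.9%, Defa21 in 71.8% and 19.2%, and Defa3 in 12.9% and 1.86%. After thinning every cell to 5000 UMIs, which left out 0 cells, Defa24 was seen in 95.9% and 33.6%.

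The makeup of the low band differed from that of the cells at 100 and over. Defa24 made up 46.6% of the member UMIs in DBZ cells under 30 and 30.3% in DBZ cells at 100 and over. Defa21 and Defa22 went the other way, from 7.19 to 14.1% and from 9.82 to 18.2%. Defa20 made up 26.9 and 29.1% in these same groups of cells, and Defa17 9.18 and 7.69%. In the 44 DBZ cells from 30 to 100, Defa20 made up 23.6%. In DMSO cells Defa24 likewise held more of the low band (37.5%, of only 2667 member UMIs) than of the cells at 100 and over (27.4%). Whether RNA free in the droplets gives the low band was not tested.

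**Figure D2:**
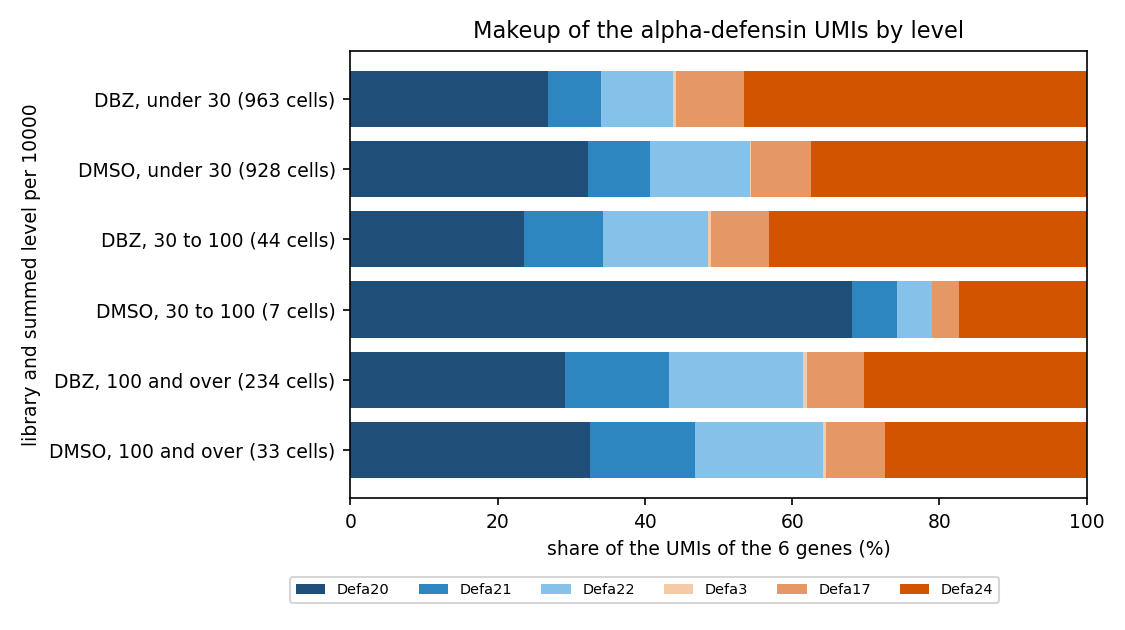
Share of the UMIs of the 6 genes that each gene held, in percent, for cells grouped by library and by summed level per 10000. Blue shades are Defa20, Defa21 and Defa22 and orange shades Defa3, Defa17 and Defa24; Defa24 takes 46.6% in DBZ cells under 30 and 30.3% in DBZ cells at 100 and over. The bar of DMSO cells from 30 to 100 rests on 7 cells.

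In the cells at 100 and over, the 6 genes did not all go together. Among the 234 DBZ cells at 100 and over, the 6 pairs within the groups Defa20-Defa21-Defa22 and Defa3-Defa17-Defa24 had Spearman correlations from 0.60 to 0.80, with a median of 0.73. The 9 pairs across the groups ran from -0.27 to 0.14, with a median of -0.13. The strongest pair was Defa21 with Defa22 (0.80), followed by Defa3 with Defa17 and Defa17 with Defa24 (both 0.75) and Defa3 with Defa24 (0.72). Defa20 went with Defa22 (0.68) and Defa21 (0.60), and was near 0 with Defa17 (0.00) and Defa24 (0.05). The 33 DMSO cells gave the same division, with a median of 0.75 within the groups (0.52 to 0.89) and -0.07 across them (-0.34 to 0.35). The highest value across groups was there Defa3 with Defa20, at 0.35. These correlations are descriptions over cells of 1 library each. Cells share library and depth, the levels share the cell's total, and the pairs Defa3 with Defa17 and Defa21 with Defa22 also share read windows. The cells were also chosen by the sum of these same 6 genes, so a cell low in 1 group had to be high in the other. That choice by itself lowers the values across the groups.

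**Figure D3:**
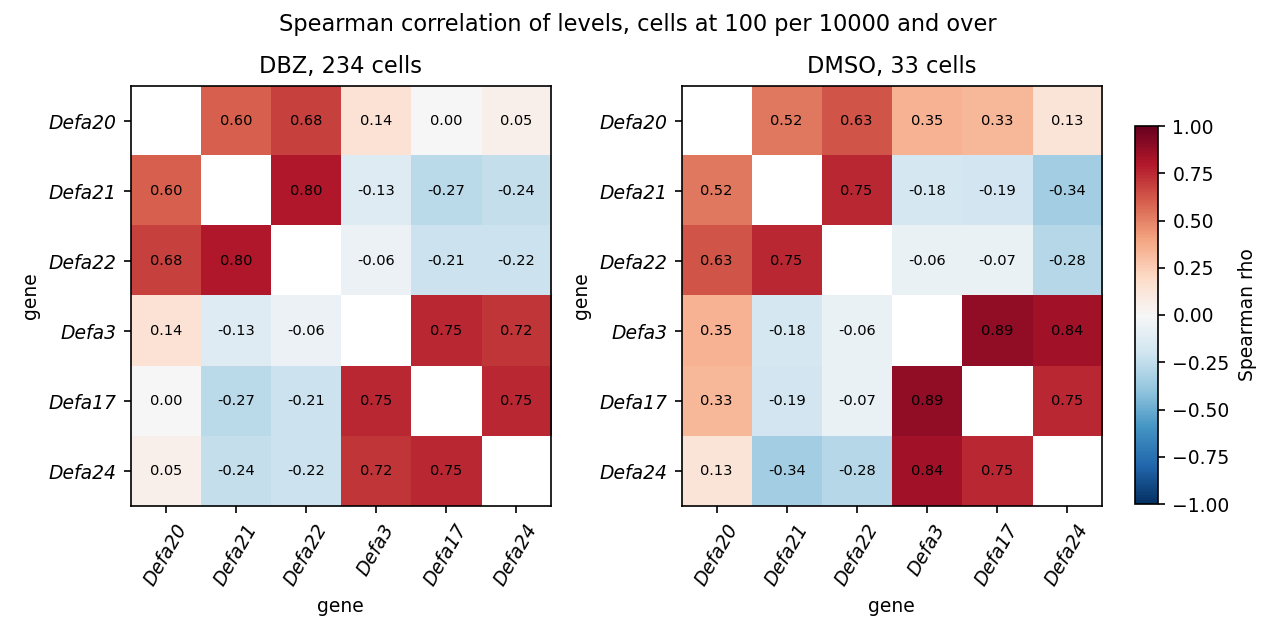
Spearman correlation of the levels of each pair of genes over cells with at least 100 UMIs of the 6 genes per 10000, for DBZ (234 cells) and DMSO (33 cells). Red is positive and blue negative; in both panels the 2 blocks on the diagonal, of 3 genes each, hold the highest values, from 0.52 to 0.89.

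Over all cells, where most sit in the low band, every pair was positively correlated on the log scale. Within groups the median Pearson correlation was 0.81 with DBZ (0.70 to 0.88) and 0.75 with DMSO. Across groups it was 0.41 with DBZ (0.32 to 0.55) and 0.46 with DMSO. By Spearman, pairs across groups ran from 0.20 to 0.39 with DBZ and from 0.09 to 0.19 with DMSO. Pairs within groups ran from 0.30 to 0.49 and from 0.09 to 0.28. The sign across groups therefore depended on which cells were taken.

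Single cells were led by different members. Of the 234 DBZ cells at 100 and over, Defa24 was the highest member in 86, Defa20 in 75, Defa22 in 40, Defa21 in 30, Defa17 in 3 and Defa3 in 0. Of the 33 DMSO cells, Defa24 led 11, Defa20 9, Defa22 8 and Defa21 5. The member in second place came from the leader's own group in 162 of the 234 DBZ cells, or 69.2% (62.9 to 75.1%), and in 22 of 33 DMSO cells. With a minimum of 20 member UMIs in place of the level of 100, which in the DBZ library takes in the low band, Defa24 led 362 of 582 DBZ cells and 12 of 43 DMSO cells. In that set Defa21 with Defa22 held 20 to 80% of the member UMIs in 255 DBZ cells, or 43.8% (39.7 to 48.0%), and in 21 DMSO cells, or 48.8% (33.3 to 64.5%).

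The share of Defa20, Defa21 and Defa22 in a cell's member UMIs divided the cells at 100 and over into 3 ranges. Over 80% of the UMIs came from these 3 genes in 128 DBZ cells (54.7%), under 20% in 45 cells (19.2%), and between 20 and 80% in 61 cells (26.1%). In the DMSO library the ranges held 16, 6 and 11 cells. These are ranges of a share, not cell types. In DBZ, 12 cells lay between 70 and 90% and 19 between 10 and 30%, while 122 lay over 90% and 35 under 10%.

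In the DBZ cells over 80%, the median summed level of Defa20, Defa21 and Defa22 was 791 (quartiles 354 and 1534). Defa3, Defa17 and Defa24 together had a median of 12.5 there (quartiles 9.34 and 17.9), against 7.40 in the low band. In the cells under 20% the values were turned round, with a median of 561 (263 and 1119) for Defa3, Defa17 and Defa24 and of 14.3 (8.07 and 50.8) for Defa20, Defa21 and Defa22, against 5.65 in the low band. The ranges were chosen by the share of the groups, so a low level of the other group is set by that choice and these values only describe the cells. In DMSO cells the same medians were 656 and 1.90 over 80%, and 237 and 0.743 under 20%, the latter over 6 cells. Cells between 20 and 80% were high for both groups, with medians of 715 and 852 in DBZ and 834 and 764 in DMSO. In DBZ they also had more UMIs, with a median depth of 14308 against 9531 over 80% and 11980 under 20%. In DMSO the depths were 17769 between, 10290 over 80% and 18037 under 20%. Doublet calling marked 0 of these 61 cells, but it marked only 2 DBZ cells in all, and the part of doublets was not tested.

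**Figure D4:**
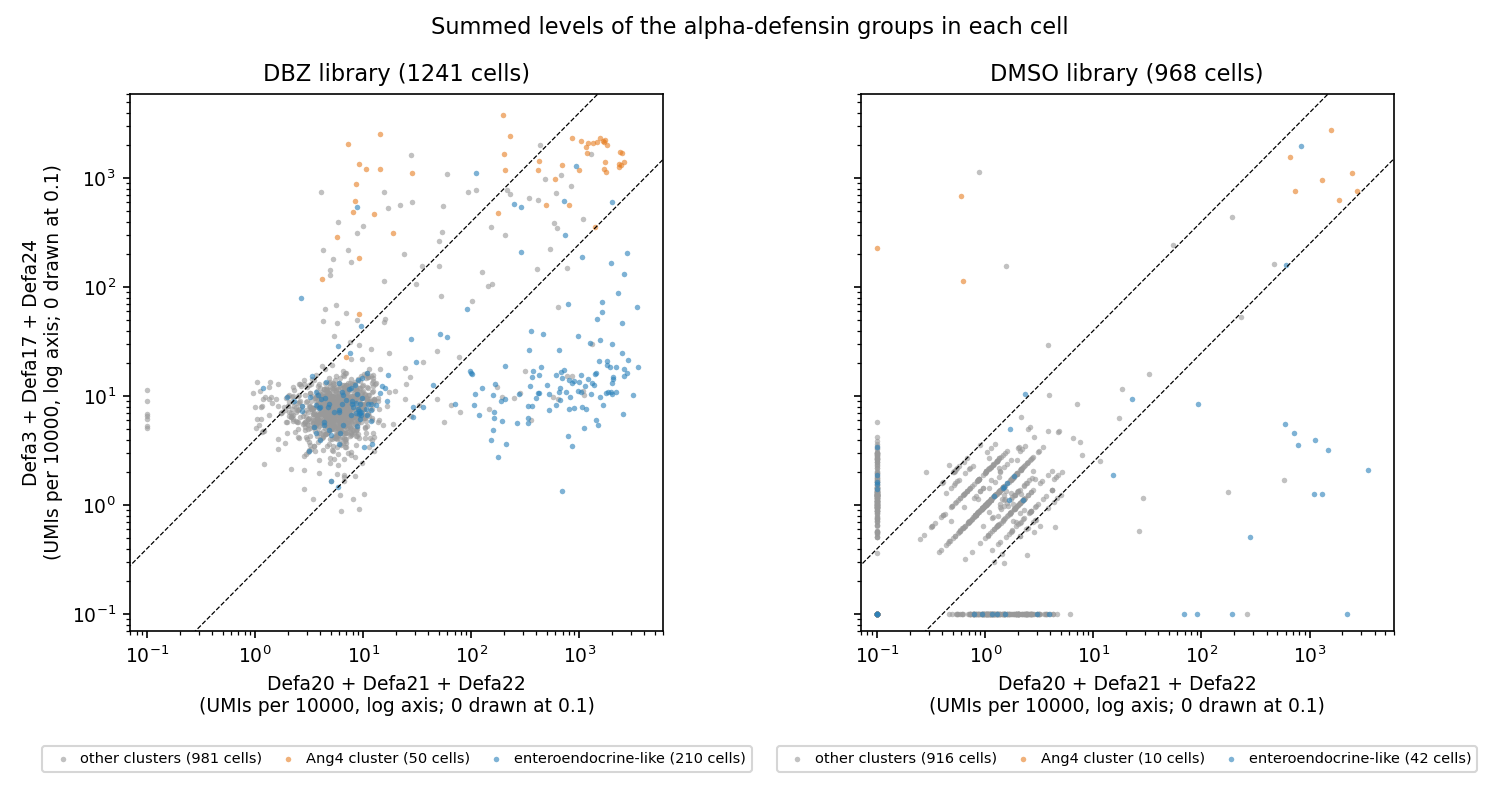
Summed level of Defa20, Defa21 and Defa22 (horizontal) against that of Defa3, Defa17 and Defa24 (vertical) in each cell, as UMIs per 10000 on log axes with 0 drawn at 0.1, for DBZ (left) and DMSO (right). Dashed lines mark shares of 80 and 20%, and colours give the cluster; enteroendocrine-like cells (blue) spread to the right at a low vertical level, cells of the Ang4 cluster (orange) lie high on the vertical axis, and most other cells (grey) form the low band.

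Within a group the members were not in a fixed ratio. In DBZ cells over 80%, the ratio of Defa22 to Defa21 had a median of 1.21 with quartiles of 0.699 and 2.56 (118 cells), and that of Defa20 to Defa22 a median of 1.10 with quartiles of 0.484 and 2.54 (123 cells). In DBZ cells under 20%, the ratio of Defa24 to Defa17 had a median of 5.26 with quartiles of 2.95 and 17.4 (40 cells). Defa3, where it could be compared, was far below Defa17, with a median ratio of Defa17 to Defa3 of 45.4 over 14 cells under 20% and of 11.6 over 30 cells between 20 and 80%.

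The cells were also placed by the rest of the transcriptome. They were clustered without any defensin gene, which gave 14 clusters. A pair of clusters is called enteroendocrine-like from genes of the enteroendocrine list. Hormone and granule genes lead the larger (Ghrl, Scg2, Chga, Chgb and Pcsk1n), and the factors Neurog3, Neurod1 and Insm1 the smaller. A further cluster was led by the Paneth cell product Ang4. Its top 10 genes held Guca2a, Spink4, Tff3, Agr2 and Fcgbp of the goblet list, and the naming rule labelled it goblet. They also held Ang4, Clps, Guca2b and Nupr1 of the Paneth list. Because it mixes both kinds of marker, it is called the Ang4 cluster here, a choice made after the values were seen. Of the 128 DBZ cells over 80% Defa20, Defa21 and Defa22, 112 were enteroendocrine-like, or 87.5% (80.5 to 92.7%), and 0 were in the Ang4 cluster (exact interval 0 to 2.84%). Of the 45 DBZ cells under 20%, 2 were enteroendocrine-like (4.44%, 0.543 to 15.1%) and 18 were in the Ang4 cluster (interval 25.7 to 55.7%). Of the 61 cells in between, 8 were enteroendocrine-like and 30 were in the Ang4 cluster. The remaining 25 of the 45 cells under 20% were in neither. In the DMSO library 12 of 16 cells over 80% were enteroendocrine-like and 0 were in the Ang4 cluster, while 0 of 6 and 3 of 6 cells under 20% were.

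By cluster, the summed level was highest in the Ang4 cluster, at a mean of 2232 over 50 DBZ cells and 2100 over 10 DMSO cells. There Defa24 had means of 1032 and 683, Defa20 of 522 and 787, Defa17 of 311 and 266, Defa22 of 203 and 234, Defa21 of 142 and 116, and Defa3 of 22.1 and 13.4. In the order of means Defa20 and Defa24 changed places between the libraries. Of its 48 DBZ cells at 100 and over, 30 lay between 20 and 80%, so most of them were high for both groups of genes. The other 18 lay under 20%. Over the DBZ cells of the cluster the lower quartile of Defa20, Defa21 and Defa22 together was 14.3. The enteroendocrine-like cells had a summed mean of 659 over 210 DBZ cells and 410 over 42 DMSO cells. Defa20 had means of 245 and 124 there, Defa22 of 207 and 124, Defa21 of 162 and 110, Defa24 of 40.1 and 50.9, Defa17 of 4.23 and 2.04, and Defa3 of 0.196 and 0.0216. The summed mean of Defa20, Defa21 and Defa22 was thus lower in enteroendocrine-like cells (615 with DBZ, 357 with DMSO) than in the Ang4 cluster (867 and 1138), while that of Defa3, Defa17 and Defa24 was 44.6 and 52.9 against 1365 and 963. These means also take in cells under 100, so they do not compare the cells at 100 and over. In the Ang4 cluster 96.0% of DBZ cells and 100% of DMSO cells reached 100, against 58.1% and 33.3% of enteroendocrine-like cells. The DMSO mean of Defa24 came from few cells, since the larger of the clusters had 5.44 over 38 cells and the smaller 482 over 4. All other clusters together had a summed mean of 59.3 over 981 DBZ cells and 6.86 over 916 DMSO cells. There 64 DBZ cells (6.52%) and 9 DMSO cells (0.983%) reached 100, against 122 and 14 enteroendocrine-like cells (58.1 and 33.3%).

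Most enteroendocrine genes were higher in the cells of the Defa20 group than in those of the Defa3 group. Of 27 genes on an enteroendocrine list that were seen in at least 1% of cells of either library, 22 were at least 2-fold higher in DBZ cells over 80% than in DBZ cells under 20%, and 1 was lower by as much. Of all 12921 genes, 9.47% were at least 2-fold higher over 80% and 4.24% under 20% by this measure, again with 0.05 added to each mean. The prohormone convertase inhibitor Pcsk1n had means of 5.50 and 0.10, the granule protein Chgb of 8.04 and 0.22, carboxypeptidase E (Cpe) of 5.67 and 0.42 and the hormone secretin (Sct) of 6.08 and 0.57. Neurog3, which starts the enteroendocrine fate, had 2.44 and 0.65. In DMSO the same genes other than Neurog3 gave 7.99 and 0.00 (Pcsk1n), 6.29 and 0.00 (Chgb), 6.56 and 0.00 (Cpe) and 5.78 and 0.10 (Sct), while Neurog3 went the other way at 0.24 and 0.55, over 16 and 6 cells. The gene lower by as much in DBZ was Nts, the neurotensin gene, at 0.24 and 2.103. Against the low band the hormone genes were divided. Gip had 0.14 in DBZ cells over 80% and 3.79 in DBZ cells under 30, and Gcg 0.02 and 1.40. Sct had 6.08 and 2.65 in the same cells, and Ghrl 3.49 and 1.04. The summed level of the list had a median of 30.6 in cells over 80%, 2.07 between, 1.82 under 20% and 1.78 in the low band.

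Goblet and Paneth genes were higher in the cells of the Defa3 group. Of 15 listed goblet genes, 11 were in the table and 9 were seen in at least 1% of cells of either library. Muc2, with 17 UMIs in the DBZ and 0 in the DMSO library, was not among the 9. Of the 9, 7 were at least 2-fold higher in DBZ cells under 20% than over 80%, against 4.24% of all genes, and 0 were lower by as much, against 9.47%. The trefoil factor Tff3 had means of 173 under 20% and 5.17 over 80%, Spink4 of 74.4 and 7.09, Fcgbp of 6.05 and 0.16, and Agr2, which folds mucins, of 3.05 and 0.05. The summed goblet list had a median of 171 under 20%, 72.2 between, 3.13 over 80% and 2.37 in the low band. Of 20 Paneth-list genes that are not defensins, 11 were higher under 20% and 3 over 80% by the same measure, beside the same 4.24 and 9.47% of all genes. Lyz1, Lyz2 and Pla2g2a of that list were not in the table. Ang4, an antimicrobial ribonuclease, had 25.4 and 1.90, the processing enzyme Mmp7 25.05 and 1.65, the lectin Itln1 49.4 and 16.3, and pancreatic colipase (Clps) 6.48 and 0.57. The 3 that were higher over 80% were Reg4 (4.23 and 1.39), Kit (0.48 and 0.17) and the Wnt ligand Wnt3 (1.21 and 0.56). In DMSO cells Mmp7 had 30.9 under 20% and 1.54 over 80%, Ang4 10.2 and 0.03 and Tff3 93.6 and 3.43. The summed Paneth list was highest in cells between 20 and 80%, with a median of 136, against 78.1 under 20%, 17.2 over 80% and 22.3 in the low band.

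**Figure D5:**
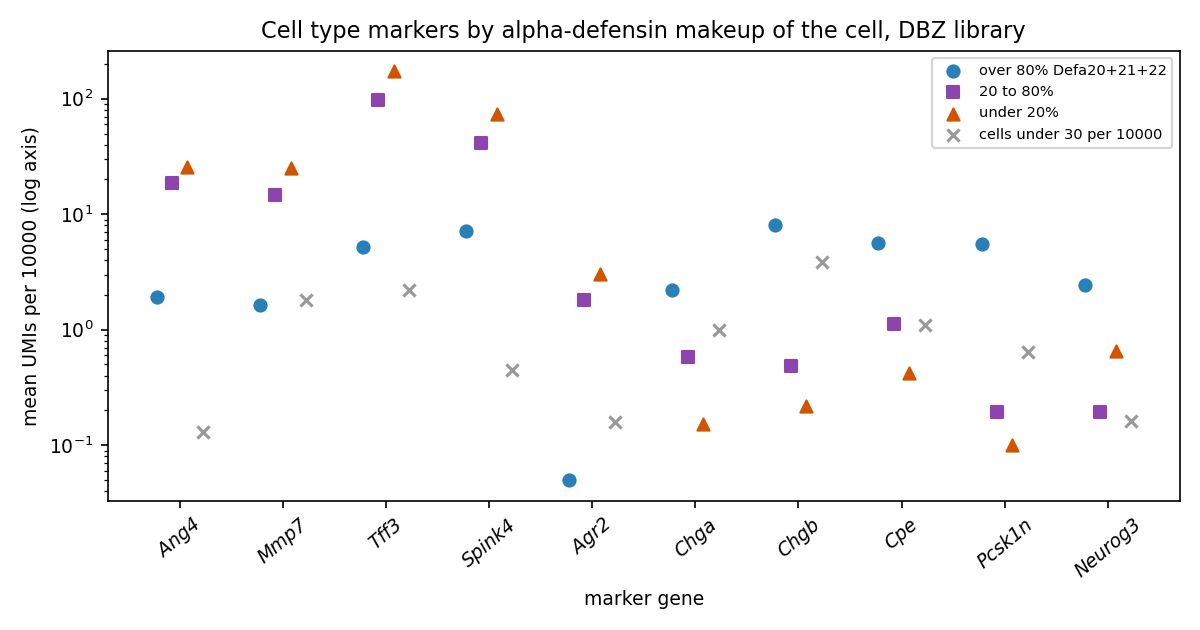
Mean level of 10 marker genes, as UMIs per 10000 on a log axis, in DBZ cells with over 80%, 20 to 80% and under 20% of their alpha-defensin UMIs from Defa20, Defa21 and Defa22, and in cells under 30. Ang4, Mmp7, Tff3, Spink4 and Agr2 are highest under 20% (173 for Tff3) and Chga, Chgb, Cpe, Pcsk1n and Neurog3 over 80% (8.04 for Chgb).

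Paneth genes other than defensins were mixed between the libraries. The added 0.05 holds down the change of sparse genes here. Of the 20, 4 were at least 2-fold higher with DBZ, namely Mptx2 (2.72), Ang4 (2.22), Mmp7 (1.20) and Wnt3 (1.02), and 2 were at least 2-fold lower, namely Mptx1 (-1.16) and the lipase Pnliprp2 (-1.21), beside 1.89% of all genes higher and 1.04% lower. The other 14 ran from -0.69 for Ephb3 to 0.94 for Reg4 and were Itln1, Nupr1, Habp2, Clps, Guca2b, Copz2, Reg3g, Cd24a, Sox9, Ephb2, Kit and Tmem181a besides. Among them Habp2, at 0.89, had a plain ratio of means of 5.47 on 116 and 16 UMIs, so without the added 0.05 a total of 5 of 20 were at least 2-fold higher. The median of the list was 0.32, against 0.10 for all genes and 2.45 for the 6 defensins. Of 9 goblet genes 5 were at least 2-fold higher and 0 lower, with Tff3 at 3.02 and Fcgbp at 2.13, and with Galnt12 (-0.49) and Clca3b (-0.46) lowest. Of 27 enteroendocrine genes 18 were at least 2-fold higher and 0 lower. Of these 27, 5 were listed at 0 in the DMSO library, Gip and Gcg (DBZ means of 3.01 and 1.10) among them, and Isl1 was lowest at 0.08.

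Lists of other cell types and of factors gave the following counts, to be read beside 1.89% of all genes at least 2-fold higher and 1.04% lower. Of 9 enterocyte genes 1 was at least 2-fold higher (Apoa1, 1.92, then Sis at 0.94). Also, 1 was at least 2-fold lower (not named here), followed by Slc5a1 at -0.98. Of 7 stem cell genes 0 were higher by as much (Rnf43 at 0.79 and Axin2 at 0.48) and 1 was lower (Smoc2, -1.24, then Lgr5 at -0.30). Of 3 tuft genes Avil had 1.30, Kctd12 0.89 and Cd24a 0.47. Of 12 genes of secretory fate and factors, 0 passed 2-fold in either direction with the added 0.05. It holds down the sparse genes among them, but not widely seen ones such as Sox9 (4185 and 3759 UMIs, plain ratio of means 0.85). Without the added 0.05, 2 of the 9 seen in both libraries passed 2-fold, both at 0.86 with it. They were Bhlha15 with a ratio of means of 7.91 (94 and 11 UMIs) and Foxa2 with 2.46 (219 and 72 UMIs). Sox9 (-0.23) and Dll1 (0.09) were lowest, and Atoh1 (79 UMIs with DBZ), Spdef and Gfi1 were listed at 0 in DMSO. Of 10 antimicrobial and granule genes 3 were at least 2-fold higher (Mptx2, Ang4 and Mmp7) and 1 lower (Mptx1, then Reg3g at -0.02). These named genes are also on the Paneth list and were counted there already. Of a fibroblast and an immune list of 5 genes each, 1 gene each was in the table, Vim (-1.02) and Cd14 (-0.06).

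The genes most like each member were sought among 10158 genes seen in at least 5% of DBZ cells, by Spearman correlation over all 1241 DBZ cells. For Defa20, Defa21 and Defa22 the nearest gene was in each case 5330417C22Rik, with 0.39, 0.33 and 0.36. Further near genes were Celf3, Selm, Wnt3 and Chga for Defa20, Hepacam2, Scg5, Pcsk1n and Wnt3 for Defa21, and Bex2, Scg5, Cpe and Map1b for Defa22. For Defa3 they were Clps (0.40), Rnase1, Guca2a, Cyp2e1 and Tff3, for Defa17 Guca2a (0.27), Clps, Rnase1, Tff3 and Spink4, and for Defa24 Clps (0.33), Spink4, Tff3, 5330417C22Rik and Rnase1. The summed level of Defa3, Defa17 and Defa24 was nearest to Clps, Tff3, Spink4, 5330417C22Rik and Selm (0.28 to 0.33), and that of Defa20, Defa21 and Defa22 to 5330417C22Rik, Celf3, Cpe, Nkx2-2 and Scg5 (0.33 to 0.40). On the log scale the Pearson correlation of the Defa3 group reached 0.75 with Tff3 and 0.73 with Spink4 in DBZ cells, and 0.72 and 0.64 in DMSO cells. For the Defa20 group it was 0.41 with Cpe and 0.41 with Scg5 in DBZ cells, and 0.36 and 0.39 in DMSO cells. All cells of a library share its depth and its low band, and ranks within that band are sparse.

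A further 18 rows of the table are alpha-defensin genes by their RefSeq symbol or position, 5 of them with a Defa name, 12 with a Gm name, and AY761184, which lies at RefSeq Defa39. Over the 234 DBZ cells at 100 and over, 9 of the 18 had a higher Pearson correlation, on the log scale, with the Defa20 group and 9 with the Defa3 group. The highest were Gm21002 (Defa33) at 0.92 and Gm15308 (Defa32) at 0.88 with the Defa20 group, and Gm15284 (Defa30) at 0.75 with the Defa3 group. These are the genes that share read windows with Defa20, and with Defa3 and Defa17. Gm15308 had a mean of 60.6 with DBZ and 12.6 with DMSO, which with DBZ lay below Defa20 and Defa24 and above the other 4 members. Defa5 (0.70) and Gm15293 (Defa41, 0.69) also went with the Defa20 group and shared no window with the 6. Defa26 (0.69) and Defa23 (0.56) went with the Defa3 group. Gm14850 (Defa37) and Gm15315 (Defa34) were correlated with both, at 0.56 and 0.34 and at 0.47 and 0.34. AY761184 was the row with the smallest difference between the libraries among those seen in both, with means of 0.247 and 0.172, of which the 5 highest cells gave 84.1% and 98.6%. Its pooled UMIs, 394 and 410, turned the direction (log2 -0.36, interval -0.57 to -0.16).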

How the data were processed

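Per the labels' protocols, a droplet chip with UMIs was loaded for 3000 cells a sample. The submitters' processing notes name Cell Ranger 2.1.1, Seurat and mm10. The annotation, cell filter and scaling were not given in the sources used here. Both libraries stand in a single table of natural log values deposited by the authors, in which exp(value) - 1 sums to 10000 per cell. All 7553435 values above 0 were whole multiples of 1 step per cell (tolerance 0.01), which gives UMIs; since the unit is a log value, count models were left out. Columns beginning with CTRL and GSI were read as DMSO and DBZ. Libraries held 16168229 (DBZ) and 13083018 (DMSO) UMIs, with medians of 10901 and 11183 per cell, and shared 3 cell barcodes.

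Clustering used scanpy 1.11.5 with igraph 0.11.9 (2000 variable genes, 30 components, 15 neighbours, Leiden resolution 1), leaving out all defensin rows. A cluster was named from at least 3 markers among its top 10 genes, a rule that labelled the Ang4 cluster goblet. Scrublet marked 2 DBZ cells (0.161%) and 6 DMSO cells (0.620%), and doublets were kept. Correlations, intervals and alignments used scipy 1.17.1, numpy 2.4.6 and MAFFT 7.526. Shares have exact Clopper-Pearson 95% intervals and pooled ratios exact conditional ones. The code was tested on simulated cells of 13373 genes, of which 200 were changed, and recovered 100% of UMIs and the right sign for 100% of changed genes. All simulated cells of a library were drawn from the same profile. The simulation therefore checks the code and does not cover genes that, like the 6, are high in few cells.

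The members and lists were chosen with earlier results of these data known. The division into Defa20, Defa21, Defa22 and Defa3, Defa17, Defa24, the ranges of 20 and 80% applied to it and the Ang4 cluster were defined after the values were seen; the set division was Defa21 with Defa22 against the other 4. Genes named are the 6 members, other alpha-defensin rows, the 5 genes most correlated with each member and group in DBZ cells, every Paneth-list gene detected, and the 2 highest and 2 lowest changes of each other list. Genes named outside this rule, as examples of cells over 80 or under 20% or as sparse or absent markers, were chosen after their values were seen. A few genes picked by it are not reported here.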

Additional observations from a re-analysis of the deposited data

How the results depend on the processing

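The summed change of 2.43 stayed positive under every alternative but 1. It was 2.41 with a pseudocount of 1, 2.30 from pooled UMIs, 2.56 without the highest cell of each library, 3.07 without the 5 highest, 2.56 in cells with at least 3000 genes and 2.39 per 10000 UMIs of all other genes. Among alternatives chosen after seeing the data, it was 2.62 in cells under 30, 3.10 without the enteroendocrine-like and Ang4 clusters, and -0.030 in cells at 100 and over, where Defa17 had -0.054, Defa20 -0.15 and Defa22 -0.0035. Outside that last setting all 6 genes were at least 2-fold higher in 9 of 11 alternatives; a pseudocount of 1, which understates Defa3, gave 0.83 at the lowest, and cells under 30 gave 0.97. The share of DBZ cells at 100 and over (18.9%) became 85.8, 22.4 and 15.1% with minima of 10, 30 and 300, and the DMSO share (3.41%) 5.17% with a minimum of 10. With a minimum of 10 the low band of the DBZ library was taken in. The percentage of DBZ cells led by Defa20, Defa21 or Defa22 was 37.1 with at least 20 UMIs, 29.6 with 10, 59.5 with 50, 59.6 after thinning and, added after seeing the data, 62.0 at 100 and over. The mixed share of Defa21 with Defa22 in DBZ cells (43.8%) became 49.8% with 50 UMIs, 50.6% after thinning and 75.9% with bounds of 10 and 90%, and in added alternatives 52.1% at 100 and over, 66.5% with Defa20 counted with Defa21 and Defa22, and 26.1% with both. The median correlation across groups became -0.084 (DBZ) and -0.032 (DMSO) on the log scale in cells at 100 and over, and 0.092 in DMSO cells with at least 20 UMIs; a correlation was counted as moved beyond 0.1. The cause of these shifts was not tested. No paired analysis was possible because there was 1 library per group and the labels carry no shared replicate numbers. Leaving out a replicate could not be done for the same reason. Defa3 is limited by depth, with 293 UMIs in the DMSO library.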
